A study of Mus musculus with 4 samples.

Results

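Cholesterol synthesis, sensing and uptake in liver was followed through 30 named genes, taken by symbol from a list of enzymes, regulators and transporters. The rule uses no measured value, but the list was drawn up with earlier results of these data known. All 30 were among the 50584 symbols of the count tables, and 29 of them passed the filter on low counts, beside 15647 genes tested in all. Poly(A) RNA was sequenced from livers of wild-type male mice aged 14 weeks and fed chow, with 2 DBA/2J and 2 C57BL/6J animals. Both are inbred laboratory strains. All animals were labelled wild type with no treatment given, and the series title places a natural defect of Mlycd, the malonyl-CoA decarboxylase gene, in DBA/2J. Each library came from 1 animal. Libraries held 48096706 to 52520737 counts.

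Cells make cholesterol from acetyl-CoA. The mevalonate steps give farnesyl diphosphate, which is joined head to head into squalene, closed into the ring of lanosterol and then trimmed and reduced to cholesterol in the endoplasmic reticulum. SCAP carries the transcription factor SREBP-2, the product of Srebf2, out of the endoplasmic reticulum when sterols are low, and INSIG proteins hold SCAP back when sterols are high. SREBP-2 acts on the promoters of most of the synthesis genes together with NF-Y, a factor that binds CCAAT boxes, so that in many settings these genes rise and fall together. The liver also takes up lipoprotein cholesterol, releases it from lysosomes through NPC2 and NPC1, and stores it as esters made by SOAT enzymes.

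Promoters are shown because SREBP-2 and NF-Y act on the promoters of most of the synthesis genes. In RefSeq on GRCm38.p6, 24 of the 30 genes had an entry, and the 250 bases before each annotated start were searched on both strands. The NF-Y box CCAAT was found in 22 of the 24 genes, against 37.5% of all genes in the table. Acat2 and Scap held none. The letters TCACNCCAC, a form of the sterol regulatory element, were found only in Hmgcs1 among the 24, against 1.22% of all genes. The E-box CANNTG was found in 15 of the 24, against 69.3% of all genes. Motifs were counted separately, also where they overlap. Some genes have several starts, and counted by window the NF-Y box was in 22 of 30 windows (73.3%), against 33.8% of all windows. The E-box was in 21 of 30 windows (70%), against 66.2% of all windows, so its direction depends on the unit counted. A match is a description of letters and not a measured binding site. Below are the windows of the genes whose mRNA differed between the strains and that have an entry, taking the most upstream start where a gene has several. Capitals mark the NF-Y box on either strand and, in Hmgcs1, also the sterol element.
Hmgcs1, chr13:119690101-119690350, forward strand: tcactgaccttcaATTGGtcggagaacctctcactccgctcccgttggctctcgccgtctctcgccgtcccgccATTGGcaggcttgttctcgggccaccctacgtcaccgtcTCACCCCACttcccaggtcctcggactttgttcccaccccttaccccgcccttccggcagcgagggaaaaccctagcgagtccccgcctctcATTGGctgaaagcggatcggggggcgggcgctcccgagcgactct
Mvd, chr8:122443423-122443672, reverse strand: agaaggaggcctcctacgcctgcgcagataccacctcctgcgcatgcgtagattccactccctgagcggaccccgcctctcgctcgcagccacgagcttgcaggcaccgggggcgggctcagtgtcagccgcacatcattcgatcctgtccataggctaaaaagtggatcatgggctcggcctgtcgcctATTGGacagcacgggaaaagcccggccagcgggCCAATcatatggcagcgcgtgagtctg
Ebp, chrX:8193513-8193762, reverse strand: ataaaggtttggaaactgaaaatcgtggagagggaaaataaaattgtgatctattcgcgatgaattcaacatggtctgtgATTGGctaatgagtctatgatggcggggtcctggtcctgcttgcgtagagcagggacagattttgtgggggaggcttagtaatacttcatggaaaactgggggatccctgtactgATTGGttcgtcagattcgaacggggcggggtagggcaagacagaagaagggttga
Dhcr7, chr7:143822917-143823166, forward strand: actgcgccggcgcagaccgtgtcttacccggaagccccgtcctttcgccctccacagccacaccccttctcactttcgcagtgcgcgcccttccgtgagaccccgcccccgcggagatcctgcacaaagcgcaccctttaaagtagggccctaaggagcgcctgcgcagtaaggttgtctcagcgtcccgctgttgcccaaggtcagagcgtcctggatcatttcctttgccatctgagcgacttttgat
Scap, chr9:110333038-110333287, forward strand: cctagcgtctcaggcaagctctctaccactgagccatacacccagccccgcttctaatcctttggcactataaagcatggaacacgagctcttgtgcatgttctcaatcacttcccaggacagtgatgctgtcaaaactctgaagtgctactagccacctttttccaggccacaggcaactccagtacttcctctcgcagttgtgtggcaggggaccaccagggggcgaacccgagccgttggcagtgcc

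The Hmgcs1 window held 3 NF-Y boxes and the Mvd and Ebp windows 2 each. The most upstream Dhcr7 window held 0, while the most downstream of its 3 windows held 2. Both Scap windows held 0. Which start is used in these livers was not measured.

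Levels were compared between genes as CPM, the counts scaled to library size with TMM, per kilobase of annotated exon. Sc5d, the sterol desaturase that acts late in the pathway, was highest, at 108 to 129 over the 4 libraries. Insig1, Hmgcs1 and Ebp came next at 80.6 to 124, 79.5 to 119 and 84.4 to 110, so these 4 ranges overlap. Within each library Sc5d was the highest on this scale, but narrowly in DBA/2J replicate 2 (125 against 124 for Insig1). The order of Insig1, Hmgcs1 and Ebp changed between libraries and is not resolved. The next were Tm7sf2 (51.6 to 57.1), Insig2 (36.1 to 73.1) and Cyp51 (45.5 to 54.4). The scale uses every annotated exon of a symbol. For Lss that is 10787 bases against 4667 in its longest coding transcript, which lowers its value of 6.37 to 8.10. The same holds for Msmo1 (6144 against 2044 bases) and Tm7sf2 (3484 against 1498), but hardly for Sc5d (4866 against 4787). The ranking, with Sc5d first, therefore rests on this scale, and levels per length of transcript were not compared.

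The lowest genes were Npc1l1, Soat1 and Mylip. Npc1l1, the sterol importer of the gut, was counted 0 times in DBA/2J replicate 1, 4 times in DBA/2J replicate 2, and 2 times and 1 time in the C57BL/6J animals, so it was not tested. A count of 3 corresponds to 0.0542 to 0.0622 CPM here, for counting error only. Soat1, the cholesterol-esterifying enzyme found in most tissues, stood at 0.274 to 0.438 per kilobase. Soat2, the form of hepatocytes and enterocytes, stood at 19.4 to 25.3. Mylip, a ubiquitin ligase that sends the LDL receptor to degradation, stood at 1.74 to 1.85.

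**Figure D1:**
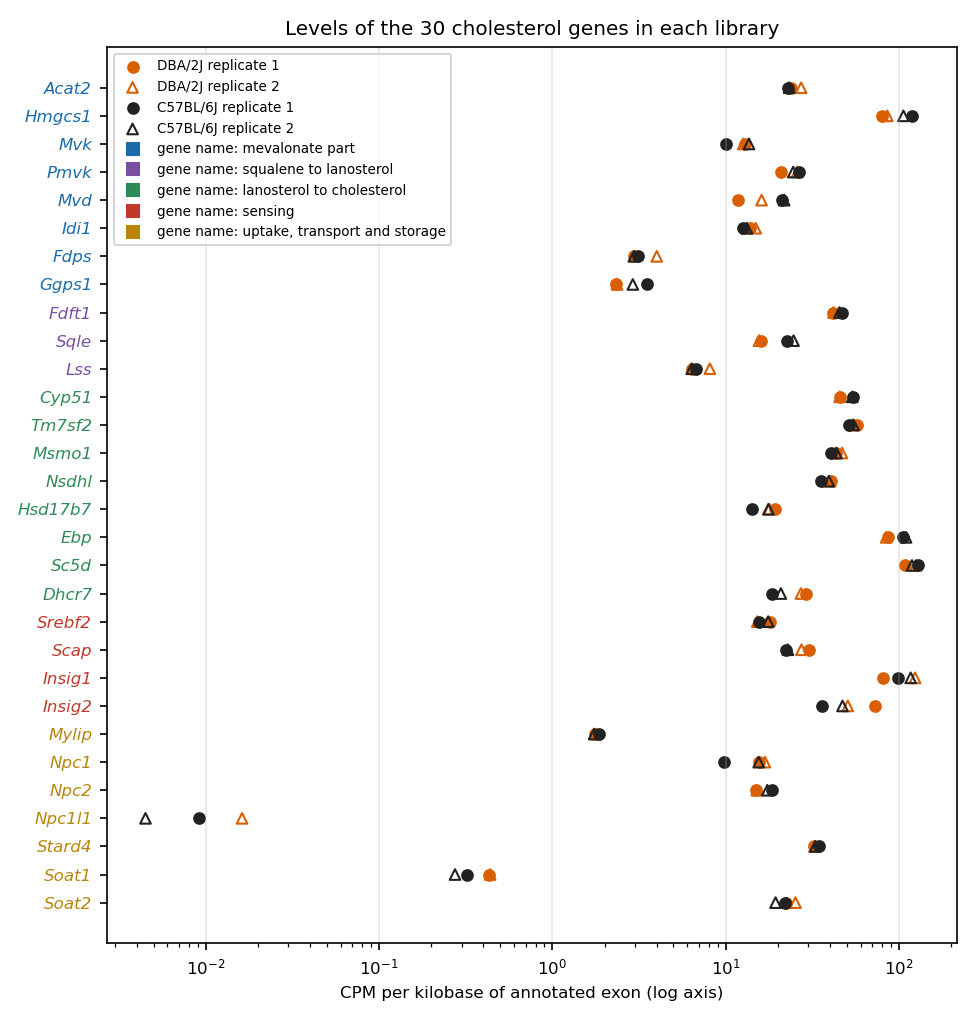
Level of each of the 30 genes in each library, in CPM per kilobase of annotated exon on a log axis; gene names are coloured by role. Sc5d, Insig1, Hmgcs1 and Ebp lie furthest right, Npc1l1 furthest left, and its library with 0 counts has no point.

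The strains were compared to ask whether liver mRNA of the pathway differs between DBA/2J and C57BL/6J. The pathway did not move as a block. Sqle, Hmgcs1, Mvd and Ebp were lower in DBA/2J and Dhcr7 and Scap were higher, by 1.26-fold for Ebp up to 1.53-fold for Mvd. Srebf2, which encodes the factor that drives the pathway, averaged 82.7 ± 9.52 CPM in DBA/2J and 82.7 ± 7.11 CPM in C57BL/6J (SD, n = 2 each). In edgeR's quasi-likelihood test with Benjamini-Hochberg adjustment over all tested genes, 6 of 29 genes were called at an adjusted p below 0.05 (20.7%), against 18.2% of all tested genes. The 2 higher calls compare with 9.29% of all genes called higher, and the 4 lower calls with 8.87% called lower. These shares lie near the background, so the number of calls is not a result about the pathway.

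Of the 29 genes, 15 had a positive and 14 a negative log2 difference (DBA/2J over C57BL/6J). The values ran from -0.62 for Mvd to 0.57 for Insig2, with a median of 0.06 beside 0.01 over all tested genes. The median size of the difference without its sign was 0.20, beside 0.31 over all tested genes. The 2 strains' CPM values did not overlap for 19 genes (65.5%), against 63.8% of all tested genes. With 2 animals per strain an exact permutation test of one gene cannot go below p = 0.333, so the calls rest on the spread shared across genes in the edgeR fit.

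**Figure D2:**
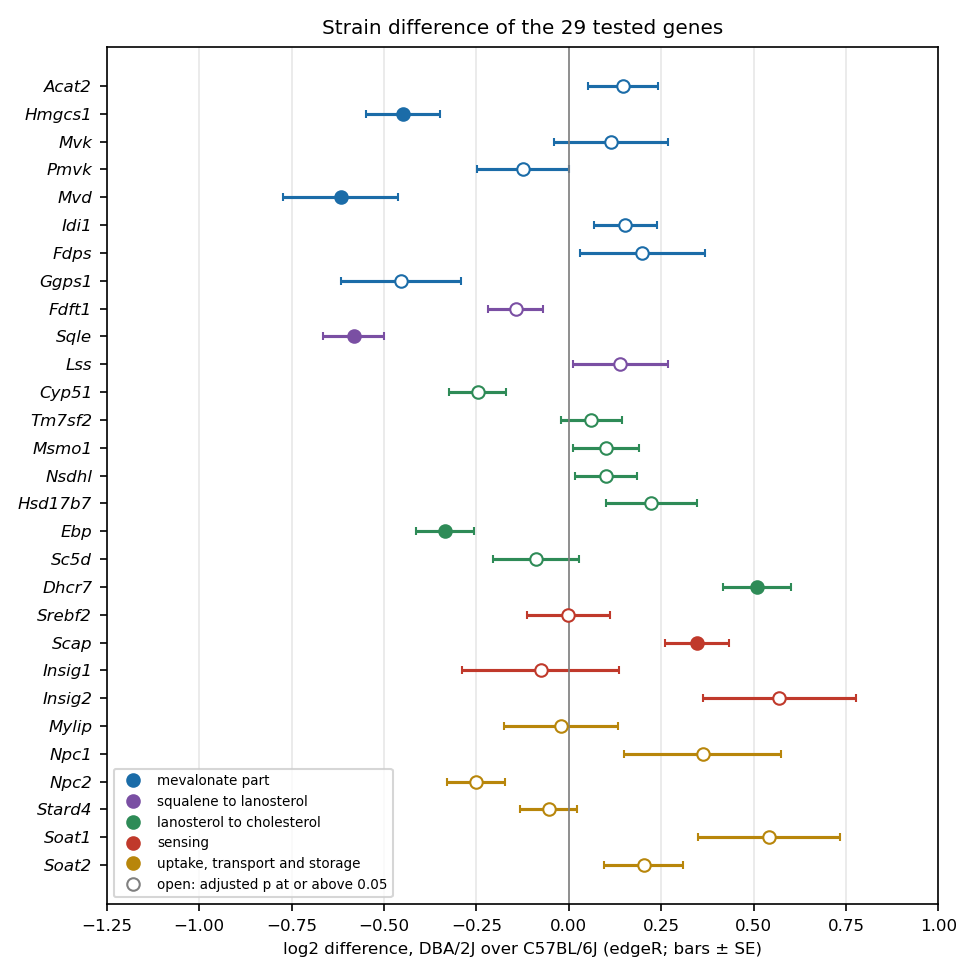
Log2 difference between the strains for the 29 tested genes, with SE from the edgeR fit; filled points were called at an adjusted p below 0.05. Filled points lie on both sides of 0, from -0.62 for Mvd to 0.51 for Dhcr7.

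In the mevalonate part, Hmgcs1, which encodes the synthase that makes HMG-CoA, lies at chr13:119690462-119708086 (GRCm38, forward strand). It had 257 and 277 CPM in the DBA/2J animals and 385 and 343 CPM in the C57BL/6J animals, replicate 1 first here and throughout. Both DBA/2J animals were below both C57BL/6J animals. The means were 267 ± 14.1 and 364 ± 29.7 CPM (SD, n = 2 each), and the log2 difference was -0.45 ± 0.10 (SE; edgeR adjusted p = 0.0336). Mvd, the decarboxylase that gives isopentenyl diphosphate, lies at chr8:122433601-122443422 on the reverse strand and had 21.9 and 29.97 CPM in DBA/2J and 39.2 and 40.4 CPM in C57BL/6J. The strains did not overlap, but the DBA/2J animals differed from each other by 0.45 on the log2 scale, more than the 0.39 gap between the strains. The log2 difference of Mvd was -0.62 ± 0.16 (SE; edgeR adjusted p = 0.0477).

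The other mevalonate genes did not pass the test. Mvk and Pmvk, the kinases between mevalonate and its diphosphate, stood at 0.11 ± 0.15 and -0.12 ± 0.12 on the log2 scale. Idi1, which isomerises isopentenyl diphosphate, stood at 0.15 ± 0.09, and Acat2, which joins acetyl-CoA units in the cytosol, at 0.15 ± 0.09. Ggps1 encodes the synthase of geranylgeranyl diphosphate, used to prenylate proteins. It had 5.51 and 5.59 CPM in DBA/2J against 8.31 and 6.89 CPM in C57BL/6J. These do not overlap, yet the log2 difference of -0.45 ± 0.16 missed the threshold (edgeR adjusted p = 0.110).

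Fdps, the farnesyl diphosphate synthase, stood at 0.20 ± 0.17 (edgeR adjusted p = 0.449), its counts being 600 and 932 for DBA/2J and 639 and 620 for C57BL/6J. Its transcript matches those of 6 other symbols at 95% identity or more over at least 100 bases, 5 of them pseudogenes, and these matches cover 91.4% of its length. Reads that fit several places are not counted under the usual behaviour of the counting program, and 26.7% of the Fdps exon bases are shared with Gm43738. How many Fdps reads were lost was not tested.

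From farnesyl diphosphate to lanosterol, Sqle had the lowest adjusted p of the 29 genes. It encodes squalene epoxidase, a rate-limiting oxidase of the pathway, at chr15:59315077-59331192 on the forward strand. Sqle had 89.2 and 86.3 CPM in DBA/2J against 126 and 137 CPM in C57BL/6J. The gap between the strains, 0.50 on the log2 scale, was larger than the difference within either strain (0.12 at most). The means were 87.8 ± 2.05 and 131 ± 7.54 CPM (SD, n = 2 each), and the log2 difference was -0.58 ± 0.08 (SE; edgeR adjusted p = 0.0100). The enzymes on either side of it did not pass. Fdft1, squalene synthase, stood at -0.14 ± 0.07 and Lss, which closes the lanosterol ring, at 0.14 ± 0.13.

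**Figure D3:**
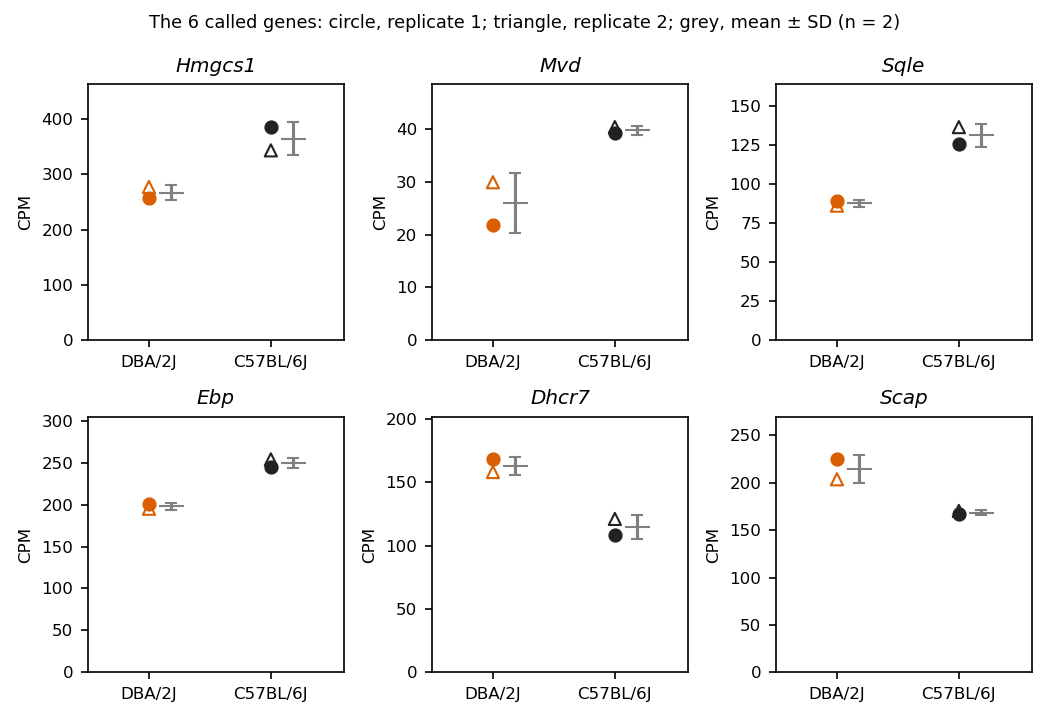
CPM of the 6 called genes in each animal, with the mean ± SD of each strain (n = 2) in grey and axes starting at 0. The animals of the strains do not overlap in any panel; the DBA/2J animals are furthest apart, relative to the gap, for Mvd.

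From lanosterol to cholesterol, 2 of 8 genes were called (25%, against 18.2% of all tested genes), in opposite directions. With so few genes this count is no result about this part of the pathway. Ebp, the sterol isomerase at chrX:8185329-8193512 on the reverse strand, had 201 and 195 CPM in DBA/2J against 245 and 254 CPM in C57BL/6J. Its log2 difference was -0.34 ± 0.08 (SE; edgeR adjusted p = 0.0393), and the strains did not overlap. Dhcr7, the reductase that turns 7-dehydrocholesterol into cholesterol, lies at chr7:143823145-143848410 on the forward strand and had 168 and 158 CPM in DBA/2J against 108 and 121 CPM in C57BL/6J. It was higher by 0.51 ± 0.09 on the log2 scale (SE; edgeR adjusted p = 0.0189), with means of 163 ± 7.07 and 115 ± 9.18 CPM (SD, n = 2 each).

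The other 6 late enzymes were not called. Cyp51, which removes the 14-alpha methyl group of lanosterol, had close replicates, 201 and 201 CPM in DBA/2J and 240.0 and 237 CPM in C57BL/6J. The strains did not overlap, but the log2 difference of -0.25 ± 0.08 missed the threshold (edgeR adjusted p = 0.0787). Hsd17b7 stood at 0.22 ± 0.12 and Sc5d at -0.09 ± 0.12. Tm7sf2, Msmo1 and Nsdhl, which reduce and demethylate the sterol ring, stood at 0.06, 0.10 and 0.10, with edgeR adjusted p values from 0.441 to 0.643.

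Among the sensing genes, Scap was called and Srebf2 was not. Scap, at chr9:110333288-110384950 on the forward strand, had 225 and 204 CPM in DBA/2J against 167 and 170 CPM in C57BL/6J, higher by 0.35 ± 0.09 on the log2 scale (SE; edgeR adjusted p = 0.0458). The strains did not overlap. Srebf2 had 89.4 and 76.0 CPM in DBA/2J and 77.7 and 87.8 CPM in C57BL/6J, with a log2 difference of -0.00 ± 0.11 (edgeR adjusted p = 0.997). Its strains overlapped fully, with the highest and the lowest animal both DBA/2J.

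The INSIG genes varied widely between animals. Insig1 is itself a target of SREBP-2 and serves as a readout of its activity. It had 249 and 383 CPM in DBA/2J and 305 and 362 CPM in C57BL/6J, so both C57BL/6J animals lay between the DBA/2J animals. Its log2 difference was -0.08 ± 0.21 (edgeR adjusted p = 0.828). Insig2, whose liver transcript in mice falls with insulin, had 254 and 176 CPM in DBA/2J against 125 and 164 CPM in C57BL/6J. Both DBA/2J animals were higher, but the log2 difference of 0.57 ± 0.21 missed the threshold (edgeR adjusted p = 0.114).

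No gene of uptake, transport and storage was called among the 6 tested, where 18.2% of all tested genes were. With so few genes this is no result about the role. Npc1, the lysosomal membrane protein that exports cholesterol, had 168 and 181 CPM in DBA/2J against 105 and 166 CPM in C57BL/6J, with a log2 difference of 0.36 ± 0.21 (edgeR adjusted p = 0.280). C57BL/6J replicate 1 alone was low. Npc2, its soluble partner, pointed the other way, with 48.7 and 49.4 CPM in DBA/2J against 60.0 and 56.7 CPM in C57BL/6J. Npc2 stood at -0.25 ± 0.08 (edgeR adjusted p = 0.0825).

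Soat1 had 4.23 and 4.28 CPM in DBA/2J against 3.16 and 2.68 CPM in C57BL/6J, a log2 difference of 0.54 ± 0.19 (edgeR adjusted p = 0.107). Soat2 stood at 0.20 ± 0.11, Stard4, a cytosolic sterol carrier, at -0.05 ± 0.08 and Mylip at -0.02 ± 0.15. Macrophages express Soat1, and the summed CPM of 5 Kupffer cell and macrophage markers was 112 and 115 in DBA/2J and 131 and 104 in C57BL/6J. Of these markers only Marco was called, lower in DBA/2J at -2.97 (edgeR adjusted p = 0.0238). Marco had 0.50 and 0.78 CPM in DBA/2J against 7.49 and 2.66 CPM in C57BL/6J, so the C57BL/6J animals also differed from each other. In whole liver, fewer cells of a type and less RNA per cell cannot be told apart.

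All 6 calls were lost when either DBA/2J animal was left out, as were most calls over all genes. With 1 animal left out of a strain, the lone animal is assumed to vary like the other strain. Without DBA/2J replicate 1, 0 of 29 genes were called, where 1.79% of all tested genes were, and without DBA/2J replicate 2 also 0, where 1.92% were. The edgeR adjusted p of Sqle was then 0.123 and 0.129, and that of Scap 0.348 and 0.182. Without C57BL/6J replicate 1, 5 genes were called (24.2% of all tested genes) and Scap was lost (edgeR adjusted p = 0.0516). Without C57BL/6J replicate 2, 12 were called (29.9% of all tested genes). Those 12 held the same 6 genes and added Insig2, Hsd17b7, Mvk and Npc1, higher in DBA/2J, and Ggps1 and Npc2, lower. The sign of all 6 calls held with each library left out, with log2 values of -0.64 to -0.52 for Sqle, -0.53 to -0.37 for Hmgcs1, -0.87 to -0.43 for Mvd, -0.37 to -0.31 for Ebp, 0.42 to 0.59 for Dhcr7 and 0.26 to 0.41 for Scap.

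Animals of one strain differed from each other by as much as the strains did in several genes. The largest differences within a strain, as log2 of CPM, were those of Npc1 in C57BL/6J (0.67) and of Insig1 and Insig2 in DBA/2J (0.62 and 0.53 in size). The INSIG genes ran in opposite directions there, with Insig1 at 0.62 and Insig2 at -0.53 for replicate 2 over replicate 1. In the mevalonate part, 7 of 8 genes were higher in DBA/2J replicate 2 than in replicate 1, by 0.45 for Mvd, 0.44 for Fdps and 0.31 for Pmvk. Lss, further down the pathway, stood at 0.34. Replicate 2 was the higher in 2 of 3 genes from farnesyl diphosphate to lanosterol and 6 of 6 genes of uptake, transport and storage. It was the higher in only 2 of 8 late enzymes and 1 of 4 sensing genes. Over the 29 genes this held for 18, with a median log2 of 0.02, against 51.1% of all tested genes. Among C57BL/6J animals, replicate 2 was the higher in 16 of the 29, against 51.4% of all tested genes. By role these were 4 of 4 sensing genes, 6 of 8 late enzymes and 4 of 8 mevalonate genes. From farnesyl diphosphate to lanosterol it was 1 of 3, and in uptake, transport and storage 1 of 6. Of the 29 genes, 10 had a gap between the strains larger than the difference within either strain (34.5%), against 34% of all tested genes. Of the 6 called genes 5 were among them, and Mvd was the exception. The calls and the gap rest on the same counts, so this is no separate support for the calls.

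**Figure D4:**
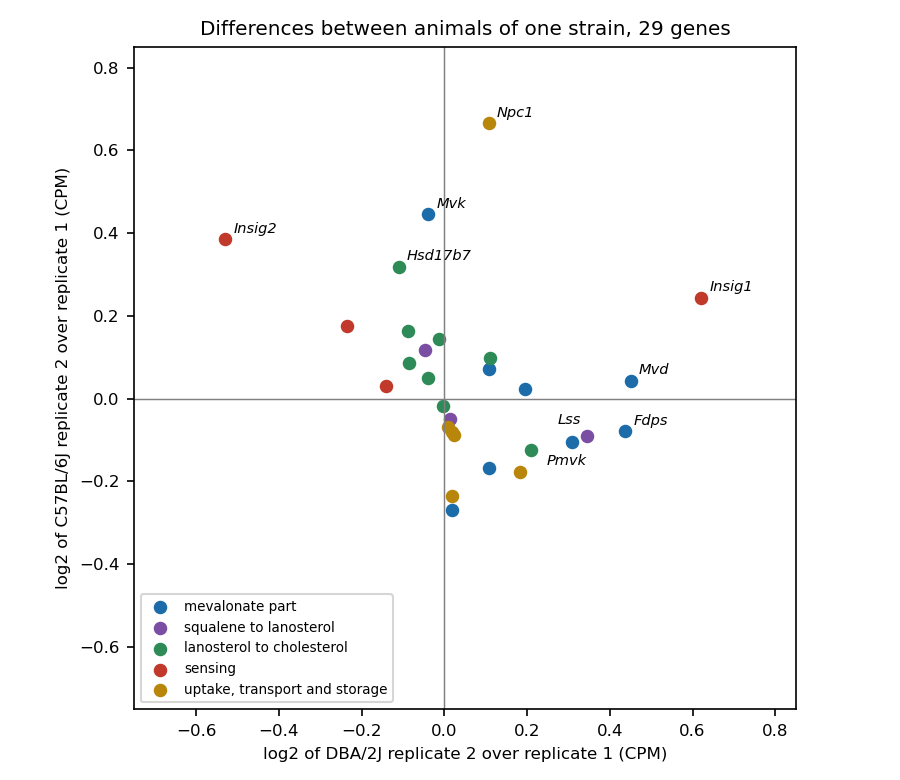
Log2 ratio of replicate 2 over replicate 1 in DBA/2J (x axis) and in C57BL/6J (y axis) for the 29 tested genes, coloured by role. Insig1 and Mvd lie to the right and Insig2 to the left, while Npc1 and Mvk are highest on the C57BL/6J axis.

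Genes that act with the pathway were read from 4 further lists, and 16 of 73 tested were called (21.9%), 7 higher and 9 lower in DBA/2J. This lies near the 18.2% of all tested genes called, 9.29% higher and 8.87% lower, so these counts are no result about the lists. Of 11 partner enzymes 2 were called (18.2%), both lower. Por, the reductase that passes electrons to CYP51 and squalene epoxidase, had 214 and 231 CPM in DBA/2J against 411 and 430 CPM in C57BL/6J. The difference was -0.91 ± 0.09 on the log2 scale (SE; edgeR adjusted p = 0.00324), larger in size than that of any of the 29 genes. Cyb5a, the cytochrome b5 that serves sterol oxidases such as SC5D, had 668 and 623 CPM in DBA/2J against 948 and 917 CPM in C57BL/6J (-0.53; edgeR adjusted p = 0.0243). The electron carriers Cyb5b and Cyb5r3 were not called, with log2 differences of -0.02 and -0.06 (edgeR adjusted p = 0.922 and 0.683).

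Of 22 partners of SREBP processing and sterol sensing, 4 were higher and 3 lower (31.8% called, against 18.2% of all tested genes). Srebf1, the lipogenic relative of Srebf2, had 509 and 503 CPM in DBA/2J against 316 and 317.5 CPM in C57BL/6J (0.68 ± 0.09; edgeR adjusted p = 0.00714). Erlin1, a scaffold of sterol-regulated degradation, was higher by 0.43 (edgeR adjusted p = 0.0178). Ube2g2, a ubiquitin-conjugating enzyme of the endoplasmic reticulum, was lower at -0.52 (edgeR adjusted p = 0.0354). Of 17 genes of the isoprenoid branches, 2 were higher and 2 lower (23.5% called). Pggt1b, a subunit of a prenyl transferase, and Zmpste24, a protease that trims prenylated proteins, stood at 0.71 and 0.43, while Coq2 of ubiquinone synthesis and Rabggtb of Rab prenylation stood at -0.64 and -0.43 (edgeR adjusted p from 0.0182 to 0.0307).

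Of 23 further transport and ester genes, 1 was higher and 2 lower (13.0% called, against 18.2% of all tested genes). Abcg5 and Abcg8 encode the partners of 1 transporter that exports sterols into bile, and they went in opposite directions. Abcg8 had 139 and 139 CPM in DBA/2J against 81.7 and 99.5 CPM in C57BL/6J (0.62 ± 0.11; edgeR adjusted p = 0.0186). Abcg5 had 57.7 and 60.7 CPM in DBA/2J against 77.9 and 82.9 CPM in C57BL/6J (-0.44 ± 0.08; edgeR adjusted p = 0.0201). The other lower gene was Tmem41b, a scramblase of the endoplasmic reticulum (-0.47; edgeR adjusted p = 0.0456). Over the 4 lists 0 genes were called with DBA/2J replicate 1 left out, where 1.79% of all tested genes were, and 0 with the other DBA/2J library left out, where 1.92% were. With C57BL/6J replicate 1 left out 23 were called (31.5%, against 24.2% of all tested genes), and with the other C57BL/6J library left out 32 (43.8%, against 29.9%). For the called genes named from these lists, the sign held without DBA/2J replicate 1 or 2. The values were -0.88 and -0.97 for Por, 0.65 and 0.68 for Srebf1 and 0.61 and 0.62 for Abcg8, close to the main values. Others moved more, such as Pggt1b at 0.59 and 0.80 (0.71 in the main test) and Tmem41b at -0.37 and -0.61 (-0.47 in the main test).

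Copies and overlaps touch some of these values. By the same match as for Fdps, Acat2 is 97.7% identical to Acat3 over 1477 bases, and Acat3 had 6009 to 7711 counts. Pseudogenes were also matched for Fdft1, Idi1, Ggps1 and Insig1. Matches to all symbols cover 54.7%, 33.3%, 27.3% and 7.01% of their transcripts. How far these copies changed the counts was not tested. Exons of Fdft1 are shared with Ctsb over 26.8% of their bases, and those of Scap with 5830462I19Rik on the opposite strand over 13.2%. Counts of that transcript were 48 and 59 for DBA/2J and 20 and 34 for C57BL/6J. Reads that overlap 2 symbols are counted for neither under the usual behaviour of the counting program, so these counts leave out the shared bases. How many Scap reads were lost was not tested. Sqle, Mvd, Ebp and Dhcr7 had 0 matched symbols and no shared exons. Of the Hmgcs1 transcript, 16.2% matched the antisense Gm48342, but Hmgcs1 shared no exon bases with another counted symbol. Reads of both strains were set against a C57BL/6J reference, and the part of DBA/2J sequence differences in the counts was not tested.

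Other cells and the state of the animals were read from markers. The hepatocyte markers Alb, Ttr, Apoa1, Fgb and Cps1 summed to 80268 to 94716 CPM, with 0 of 5 called. The 4 stellate cell markers summed to 189 and 245 CPM in DBA/2J against 145 and 100 CPM in C57BL/6J, with Reln called higher (1.30). Of 4 sinusoidal endothelial markers Stab2 was higher (0.40) and Lyve1 lower (-1.16), and the list summed to 77.2 to 98.5 CPM. The 3 bile duct markers summed to 3.45 to 4.54 CPM with 0 called. The intestinal marker Cdx2 was at 0 in all libraries, while Fabp2 was higher (0.39). Acute phase genes stood apart in C57BL/6J replicate 1, where Saa1, Saa2 and Lcn2 summed to 3426 CPM. The sum was 178 CPM in the other C57BL/6J animal and 126 and 44.1 CPM in the DBA/2J animals. In that animal neutrophil markers summed to 5.11 CPM, against 0.253 to 0.477 in the others. The part of these markers in the strain differences was not tested. With C57BL/6J replicate 1 left out, 5 of the 6 calls held, as given above, and Npc1 moved from 0.36 to 0.06.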

How the data were processed

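The deposited values are unnormalised counts for each gene symbol, with 1 library in each file. Per the file headers, the authors counted with featureCounts 2.0.1 on exons of Ensembl release 88 (GRCm38), grouped by gene name, with no option for strand, multiply aligned reads or overlapping genes. The submitters' processing notes name STAR 2.4.0g1 and featureCounts 1.5.2. Per the labels' protocols, reads were single-end, 100 bases. The file headers carry the paired-end option of the counting program, which conflicts with that label, so whether a count is a read or a fragment rests on the label.

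Counts of all genes were tested with edgeR 4.0.16 (R 4.3.3), using glmQLFit in its newer form, glmQLFTest, TMM scaling, filterByExpr with a minimum count of 10 and strain as the only term. P-values were adjusted over all tested genes by Benjamini-Hochberg. SE values come from the F statistic. The script was tested on simulated data. Alternatives used limma 3.58.1 and DESeq2 1.42.0 among others. Copies were sought with blastn 2.17.0 in GENCODE M21 transcripts. Promoter sequences are from RefSeq (GRCm38.p6).

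The 30 genes and the further lists were chosen with earlier results of these data known. All 30 are named, as are up to 4 called genes per further list with the lowest adjusted p, and markers where a result touches them. One gene that the rule selects is not reported here. The p-values cover the spread between 2 animals per strain. Strain labels set the groups, and titles gave the replicate numbers. SE and SD values include the spread between animals, while the CPM given for a count of 3 covers counting error only.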

Additional observations from a re-analysis of the deposited data

How the results depend on the processing

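In 12 alternatives none of the 6 calls changed sign (0 reversals), but the count of calls moved. Higher calls, 2 in the main test, fell to 1 with RLE size factors, 1 with limma-voom, 1 with the legacy quasi-likelihood fit and 0 with no filter on low counts, and ranged from 0 to 6 with each library left out. Lower calls, 4 in the main test, fell to 1 with library totals alone and 1 with no filter, and ranged from 0 to 6 with each library left out. Over all tested genes, calls ranged from 292 to 4905 with each library left out and were 1516 with no filter, where 25810 genes were tested. DESeq2 gave 3 higher and 4 lower genes, Insig2 being added, where 12.3% of 25810 genes were called. The share of all tested genes called was 17.9% with RLE size factors, 17.6% with limma-voom and 17.9% with the legacy fit. It was 18.8% with library totals alone and 5.87% with no filter, against 18.2% in the main test. The cause of the changes in calls was not tested. Fewer samples or more tested genes enter by construction, but calls over all genes rose when either C57BL/6J library was left out. Over all tested genes the median size of the log2 difference between replicates was 0.115 in DBA/2J and 0.173 in C57BL/6J. The median log2 of the 29 genes was 0.06 in the main test and 0.14 with library totals alone, which moved the median over all genes to 0.09, and ranged from -0.039 to 0.094 with each library left out. With a replicate block for the shared title numbers, 1 gene was higher and 2 lower (Dhcr7, Mvd and Sqle), where 15.3% of all tested genes were called. The labels do not say that the numbers pair animals, and same-numbered deviations correlated at 0.0172 over genes.

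Of the genes not called, 8 changed sign somewhere. With library totals alone the log2 value was 0.077 for Srebf2, 0.011 for Insig1, 0.060 for Mylip and 0.027 for Stard4, and with a minimum count of 50 it was 0.0044 for Srebf2. With each library left out the values ran from -0.10 to 0.35 for Mvk, -0.29 to 0.0060 for Pmvk, -0.043 to 0.38 for Fdps, -0.048 to 0.29 for Lss, -0.14 to 0.11 for Srebf2, -0.42 to 0.19 for Insig1 and -0.066 to 0.018 for Mylip. Among the 4 further lists, 30.1% of genes were called with library totals alone (18.8% of all tested genes), 15.1% with the replicate block (15.3%) and 6.85% with no filter (5.87%), against 21.9% (18.2%) in the main test.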
